A study of Mus musculus with 16 samples.

Results

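The IGF binding proteins and receptors described here are 10 genes: the binding proteins *Igfbp2*, *Igfbp3*, *Igfbp4*, *Igfbp5*, *Igfbp6* and *Igfbp7*, the receptors *Igf1r*, *Igf2r* and *Insr*, and the RNA-binding protein gene *Igf2bp2*. They were listed by symbol, not by any measured value, and are 10 of the 20622 genes in the total RNA tables. Of them, 8 are also among the 15235 genes of the ribosome-footprint tables, in which *Igfbp5* and *Igfbp6* have no entry. After a filter on low counts, 6 members were tested in each comparison, namely *Igfbp3*, *Igfbp7*, *Igf1r*, *Insr*, *Igf2r* and *Igf2bp2*.

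The cells were mouse KM lung tumour cells, whose alleles include Rosa26 LSL-MYC/LSL-MYC, switched on in alveolar type II cells by intranasal Ad5-SPC-CRE. All libraries came from tumours of 1 male mouse, so no other animal stands behind any value. KM 4A2cr cells were transduced with a CRISPR guide to the coding region of *Eif4a2*, which encodes a DEAD-box helicase that regulates mRNA translation, and are a pool of clones without the protein. KM NTC cells carry a non-targeting guide in the same vector. Both were untreated and grown with serum to near confluence, and the 4 replicates of each line were independent experiments on different days. Ribosome-protected fragments (RPFs), the pieces of mRNA that a ribosome shields from RNase, and cytoplasmic total RNA were sequenced from the same lysates, giving 4 libraries for each of 4 groups and 16 in all.

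Insulin-like growth factors act through the receptor tyrosine kinase IGF1R, which is close in structure to the insulin receptor and can pair with it, and signal mainly to PI3-kinase and MAP-kinase. IGF2R, the cation-independent mannose 6-phosphate receptor, has no kinase: it carries lysosomal enzymes and removes IGF2 from the cell surface. The secreted IGFBPs bind the ligands outside the cell and either hold them from the receptor or carry them to it, and several also act without ligand. IGF2BP2 shares part of its name but sits in the cytoplasm, where it binds mRNAs, *Igf2* mRNA among them, and affects their stability and translation.

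RPF libraries held 4512403 to 9621848 counts and total RNA libraries 5350920 to 9312624, and replicate 4 was the shallowest in each group. Markers of alveolar type II and other epithelial cells summed to 6860 to 10030 CPM of RPFs (counts scaled to library size) in KM NTC and 8261 to 11460 CPM in KM 4A2cr, whereas the surfactant genes *Sftpc*, *Sftpb* and *Sftpa1* and the lineage factor *Nkx2-1* had no RPF entry. Of 6 epithelial markers tested in RPFs, 4 lay above 0, and *Abca3*, *Epcam* and *Cdh1* were called higher in KM 4A2cr. Fibroblast markers summed to at most 23.7 CPM. Leukocyte markers other than *Cd68* summed to at most 3.50 CPM in RPFs. *Cd68*, which encodes a lysosomal protein abundant in macrophages, was at 777 and 695 CPM in replicate 4 of KM NTC and KM 4A2cr and between 74.0 and 126 CPM in the other 6 RPF libraries. Replicate 4 therefore stood apart in both lines, and its part in the results below was not tested beyond leaving it out. In bulk samples, fewer expressing cells and less RNA per cell cannot be told apart.

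*Eif4a2* (ENSMUSG00000022884.17), the targeted gene, had 97.7, 122, 99.9 and 389 RPF CPM in KM NTC replicates 1 to 4, and 51.0, 88.4, 74.8 and 346 CPM in KM 4A2cr. It was lower in KM 4A2cr in every pair, but replicate 4 of both lines lay far above the others. The log2 fold change (KM 4A2cr against KM NTC) was -0.49 (standard error, SE, 0.15, adjusted p = 0.0941 in the edgeR test) for RPFs and -0.18 (adjusted p = 0.504) for total RNA. A guide to the coding region need not lower the mRNA, so this does not measure loss of the protein.

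Transcript levels of the members are compared with each other per length, as the deposited TPM. In KM NTC the highest were *Igfbp7* at 811 ± 141 TPM (SD, n = 4), which encodes a secreted protein that binds IGFs weakly and associates with the extracellular matrix, and *Igfbp3* at 659 ± 340 TPM, the main carrier of IGFs in blood. These 2 overlapped in range. *Igf2r* at 88.4 ± 5.55 TPM and *Igf2bp2* at 81.4 ± 16.0 TPM followed and also overlapped, while *Igf1r* at 31.2 ± 1.03 TPM and *Insr* at 17.1 ± 1.71 TPM were lower and distinct from each other. The order in KM 4A2cr was *Igfbp3* at 958 ± 659 TPM, *Igfbp7* at 620 ± 267 TPM, *Igf2r* at 99.6 ± 27.1 TPM, *Igf2bp2* at 52.2 ± 12.3 TPM, *Igf1r* at 32.6 ± 10.3 TPM and *Insr* at 20.1 ± 7.44 TPM. There the ranges overlapped within 3 neighbouring pairs: *Igfbp3* and *Igfbp7*, *Igf2r* and *Igf2bp2*, and *Igf1r* and *Insr*.

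The 4 remaining binding proteins were at or near the limit of detection. Over 8 libraries of each kind, *Igfbp4* had 39 RPF and 61 total RNA counts, *Igfbp5* had 6 total RNA counts and *Igfbp6* had 2. *Igfbp2* had 60 RPF counts, of which KM NTC held 25 and KM 4A2cr 35, but 1 total RNA count, so its footprints are not matched by transcript in these libraries. A count of 0 allows up to 3 counts, which corresponds to between 0.312 and 0.665 CPM in an RPF library and between 0.322 and 0.561 CPM in a total RNA library, for counting error alone.

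The ligands were equally scarce. *Igf2* had 4 RPF and 15 total RNA counts over all libraries, *Igf1* had 1 and 2, and *Ins1*, *Ins2* and *Igfbp1* had 0 total RNA counts and no RPF entry. *Igfals*, which encodes the acid-labile subunit that stabilises IGF and IGFBP3 complexes in serum, had 2 RPF counts. None of these 6 genes of ligands and carriers reached the filter. The cells therefore had transcripts of 3 receptors and 2 binding proteins, with little transcript of any ligand.

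The first comparison asked whether ribosome footprints on the members differed between KM 4A2cr and KM NTC. None of the 6 tested members passed an adjusted p of 0.1 in edgeR, beside 10.3% of all genes tested. None had an unadjusted p under 0.05 (0 of 6), beside 2411 of all 10291 genes tested, and DESeq2 also called 0 members. *Igfbp3* (ENSMUSG00000020427.12) had 841, 406, 764 and 496 RPF CPM in KM NTC replicates 1 to 4 and 1247, 676, 1047 and 294 in KM 4A2cr. It was higher in KM 4A2cr in replicates 1 to 3 and lower in replicate 4, which had the lowest value of the 8 libraries. Its log2 fold change was 0.26 (SE 0.23, edgeR adjusted p = 0.526).

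**Figure D1:**
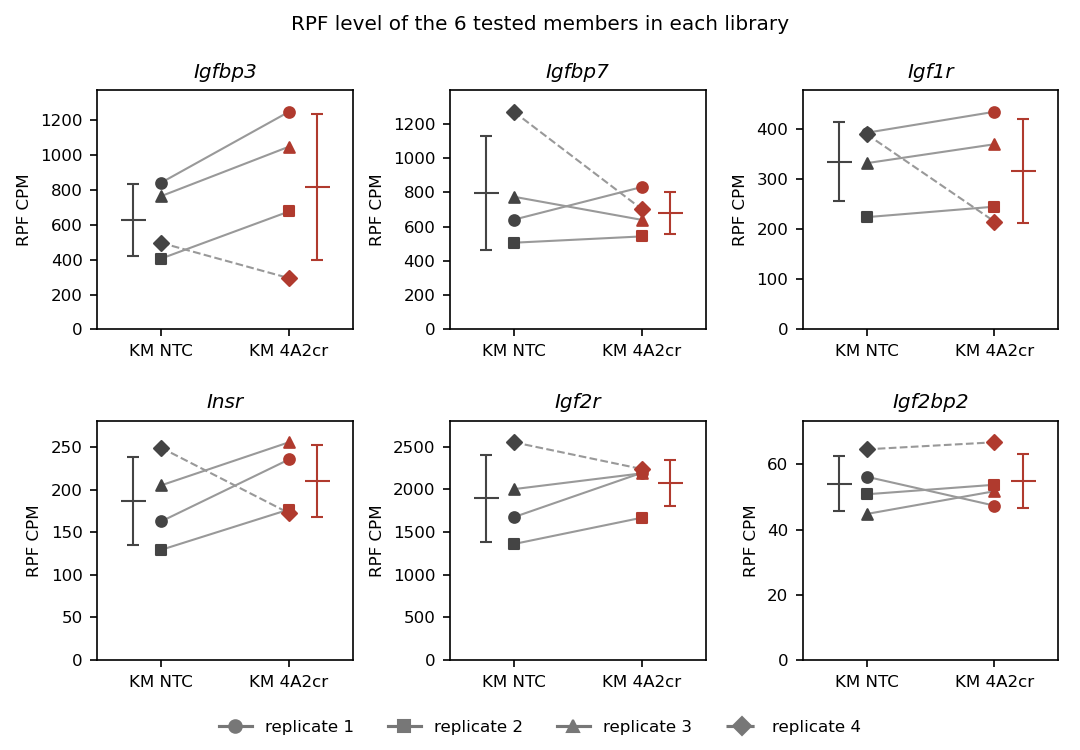
RPF CPM (y axis, linear from 0) of the 6 tested members in each KM NTC and KM 4A2cr library. Points are single libraries, lines join the libraries of a replicate (dashed for replicate 4), and the bars beside them give the mean ± SD of 4. For *Igfbp3*, *Igf1r*, *Insr* and *Igf2r* the lines of replicates 1 to 3 rise and that of replicate 4 falls.

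*Igfbp7* (ENSMUSG00000036256.14) had 641, 506, 774 and 1270 RPF CPM in KM NTC and 831, 543, 639.6 and 703 in KM 4A2cr, with overlapping lines and pairs that split 2 and 2. The value in KM NTC replicate 4 was well above the other 7. Its log2 fold change was -0.16 (SE 0.19, edgeR adjusted p = 0.655).

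Among the receptors, *Insr* (ENSMUSG00000005534.11), the insulin receptor, had 163, 129, 205 and 249 RPF CPM in KM NTC and 236, 177, 256 and 173 in KM 4A2cr. *Igf1r* (ENSMUSG00000005533.11) had 392, 224, 331 and 389 in KM NTC and 434, 245, 369 and 215 in KM 4A2cr. *Igf2r* (ENSMUSG00000023830.15) had 1674, 1359, 2002 and 2551 in KM NTC and 2193, 1667, 2187 and 2238 in KM 4A2cr. Each of the 3 receptors was higher in KM 4A2cr in replicates 1 to 3 and lower in replicate 4, with ranges that overlapped between the lines. The log2 fold changes were 0.20 for *Insr*, -0.10 for *Igf1r* and 0.16 for *Igf2r*, with standard errors of 0.18, 0.18 and 0.14 and adjusted p of 0.551, 0.780 and 0.538 by edgeR.

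The RPFs of *Igf2bp2* were nearly level on average. They were 56.2, 50.8, 44.8 and 64.6 CPM in KM NTC and 47.3, 53.8, 51.8 and 66.8 CPM in KM 4A2cr, with a log2 fold change of 0.02 (SE 0.13, edgeR adjusted p = 0.941). The ranges of the lines overlapped for 6 of 6 tested members in RPFs, and 2.13% of all genes had ranges that did not.

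The pattern of a rise in pairs 1 to 3 and a fall in pair 4 was shared by 4 of 6 tested members (*Igfbp3*, *Igf1r*, *Insr* and *Igf2r*) and by 13.0% of all genes in RPFs. The within-pair log2 differences of *Igfbp3* were 0.57, 0.73, 0.45 and -0.75, and those of *Igf1r* were 0.15, 0.13, 0.16 and -0.85. Without replicate 4, RPFs of *Igfbp3* (log2 fold change 0.59, edgeR adjusted p = 0.00164), *Insr* (0.43, adjusted p = 0.00629) and *Igf2r* (0.27, adjusted p = 0.0894) passed as higher. That is 3 of 6 members, where the same fit called 33.4% of all genes and 19.1% as higher. Leaving out replicate 1, 2 or 3 called no member.

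**Figure D2:**
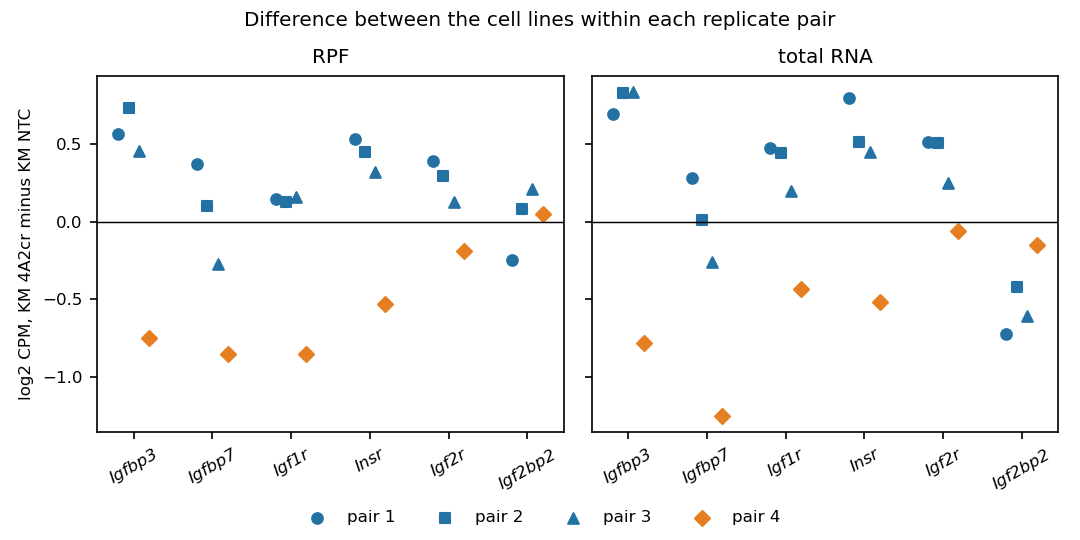
Log2 difference in CPM between KM 4A2cr and KM NTC (y axis) within each replicate pair for the 6 tested members, in RPFs (left) and total RNA (right). Pair 4, in orange, lies below 0 for *Igfbp3*, *Igfbp7*, *Igf1r*, *Insr* and *Igf2r* in both panels, whereas *Igf2bp2* lies below 0 in all 4 pairs of total RNA.

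The second comparison asked the same of the mRNA. In total RNA, 1 of 6 tested members was called, *Igf2bp2* as lower, beside 6.13% of all genes called and 1.78% called lower. *Igf2bp2* (ENSMUSG00000033581.18) had 158, 161, 157 and 142 CPM in KM NTC and 95.3, 120.4, 103 and 128 in KM 4A2cr. All 4 KM NTC libraries lay above all 4 KM 4A2cr libraries, which was true of 1 of 6 tested members and of 1.97% of all genes in 1 direction or the other. The log2 fold change was -0.48 (SE 0.13, edgeR adjusted p = 0.0872), with within-pair differences of -0.73, -0.42, -0.61 and -0.15. This call did not hold at an adjusted p of 0.05 or without the replicate block (-0.47, edgeR adjusted p = 0.999). Nor did it hold without replicate 1, 2 or 3, where the log2 fold change was -0.40, -0.50 and -0.43 (adjusted p = 0.295, 0.357 and 0.475). It held without replicate 4 (-0.59, adjusted p = 0.000137).

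*Igfbp3* mRNA had 1320, 505, 807 and 473 CPM in KM NTC and 2132, 898, 1442 and 275 in KM 4A2cr. Again replicates 1 to 3 were higher in KM 4A2cr and replicate 4 was lower, and the log2 fold change was 0.41 (SE 0.27, edgeR adjusted p = 0.459). *Igfbp7* mRNA had 460.3, 303, 441 and 675 CPM in KM NTC and 559, 305, 369 and 283 in KM 4A2cr. Its pair 4 difference, -1.25, was the lowest of any member and pair, and its log2 fold change was -0.30 (SE 0.23, edgeR adjusted p = 0.537).

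**Figure D3:**
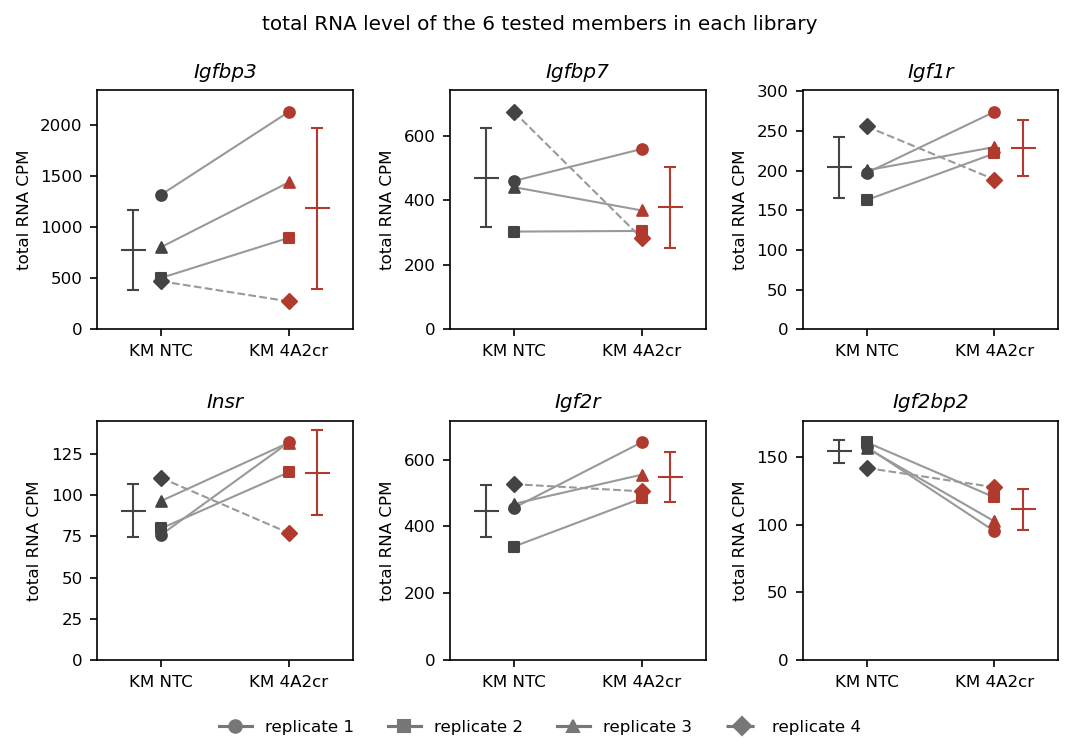
Total RNA CPM (y axis, linear from 0) of the 6 tested members in each library, drawn like the RPF plot, with bars for the mean ± SD of 4. *Igf2bp2* is the one member whose KM NTC values (142 to 161 CPM) all lie above its KM 4A2cr values (95.3 to 128 CPM).

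For the receptors, *Insr* mRNA had 75.9, 79.8, 96.4 and 110.4 CPM in KM NTC and 132, 114, 132 and 77.0 in KM 4A2cr. *Igf1r* had 197, 163, 200.4 and 256 CPM in KM NTC and 274, 222, 229.7 and 189 in KM 4A2cr. *Igf2r* had 455, 339.5, 467 and 526 CPM in KM NTC and 652, 484, 555 and 505 in KM 4A2cr. As in RPFs, each receptor was higher in KM 4A2cr in replicates 1 to 3 and lower in replicate 4, a pattern found for 4 of 6 members, *Igfbp3* included, and for 13.6% of all genes. The log2 fold changes were 0.32, 0.17 and 0.30 for *Insr*, *Igf1r* and *Igf2r*, with standard errors of 0.19, 0.17 and 0.16 and adjusted p of 0.421, 0.630 and 0.339 by edgeR.

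Without replicate 4, total RNA of 4 members passed as higher: *Igfbp3* (0.78, edgeR adjusted p = 3.4e-06), *Insr* (0.58, adjusted p = 0.000239), *Igf2r* (0.42, adjusted p = 0.00221) and *Igf1r* (0.36, adjusted p = 0.00694). *Igf2bp2* passed as lower (-0.59, adjusted p = 0.000137). The same fit called 29.8% of all genes, and 17.8% of all genes as higher. Whether the 3 pairs or the 4 pairs describe the cells better was not tested.

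**Figure D4:**
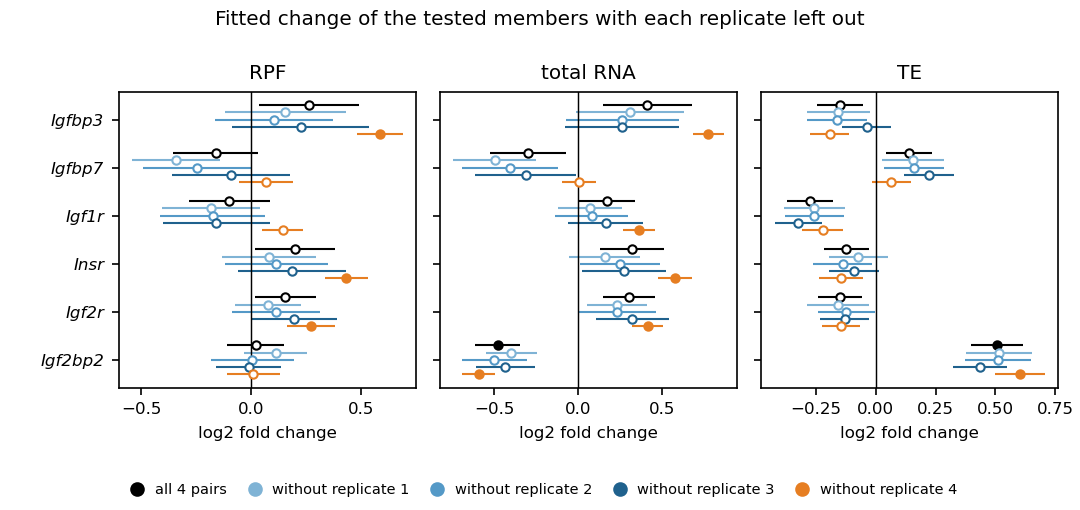
Fitted log2 fold change ± standard error (x axis) of each tested member in RPFs, total RNA and translational efficiency (TE), with all 4 pairs and with each replicate left out. Filled points passed an adjusted p of 0.1 and open points did not. Calls for *Igfbp3*, *Insr*, *Igf2r* and *Igf1r* appear without replicate 4 alone, and *Igf2bp2* keeps its sign in total RNA and TE throughout.

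Translational efficiency was taken as the change in RPFs beyond the change in total RNA, tested as an interaction over all 16 libraries. Of 6 tested members, *Igf2bp2* was called higher, beside 2.91% of all genes called and 1.87% called higher. Its TE log2 fold change was 0.51 (SE 0.11, edgeR adjusted p = 0.0256), with differences of 0.48, 0.50, 0.82 and 0.20 in the 4 pairs. The value arises from mRNA that was lower in KM 4A2cr while RPFs were nearly level, so it is not a rise in footprints. The log2 fold change was 0.51, 0.51 and 0.43 without replicate 1, 2 and 3, but did not pass there (adjusted p = 0.195, 0.170 and 0.218) or without the replicate block (0.49, adjusted p = 1.0), while the value without replicate 4 was 0.60 (adjusted p = 0.00127).

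The 3 receptors had TE values below 0, of which none passed. The TE log2 fold change of *Igf1r* was -0.27 (SE 0.09, edgeR adjusted p = 0.156, unadjusted p = 0.00813), with -0.33, -0.31, -0.04 and -0.42 in the 4 pairs. That of *Igf2r* was -0.15 (adjusted p = 0.502), with -0.13, -0.22, -0.12 and -0.13, and that of *Insr* was -0.12 (adjusted p = 0.610), with -0.26, -0.06, -0.13 and -0.01. TE was below 0 in 4 of 4 pairs for each of the 3 receptors, for 3 of 6 tested members and for 11.3% of all genes. Unlike the levels, these differences had the same sign in pair 4 as in pairs 1 to 3. *Igfbp3* had a TE log2 fold change of -0.15 (adjusted p = 0.526) and *Igfbp7* one of 0.14 (adjusted p = 0.546), each with 3 pairs on 1 side and 1 on the other.

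**Figure D5:**
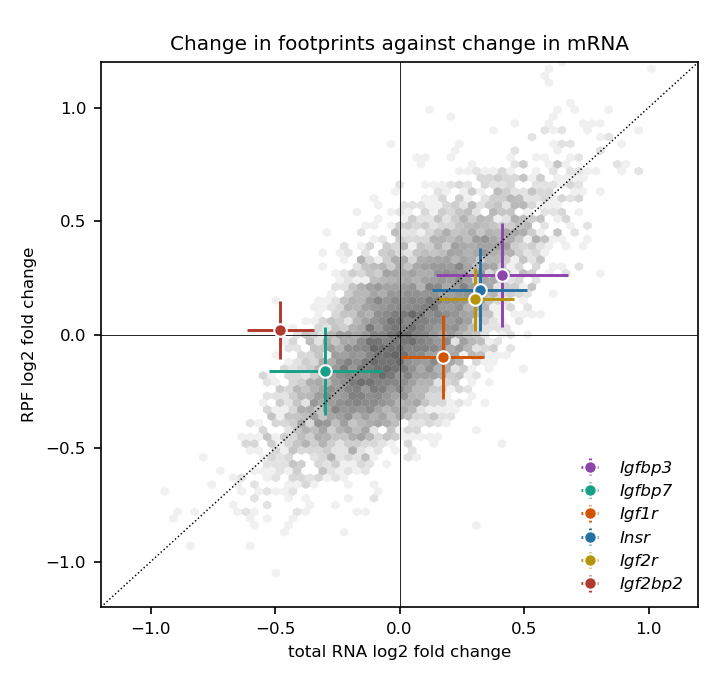
RPF log2 fold change (y axis) against total RNA log2 fold change (x axis) for the 9989 genes tested in both (grey, darker where denser, 127 genes lie outside the axes) and the 6 tested members (coloured, ± standard error). On the dotted line both changes are equal: *Igf2bp2* lies above it with its mRNA at -0.48 and its RPFs at 0.02, and the 3 receptors and *Igfbp3* lie below it.

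RPFs had been counted on 1 transcript per gene, so the isoforms of the members were examined in total RNA. *Igf1r*, *Igf2r* and *Insr* have 1 isoform in these tables. Of the 2 isoforms of *Igf2bp2*, the one used for RPFs (ENSMUST00000100052.11, 3899 bases) took 60.5 ± 0.54% of the gene's expected counts in the KM NTC libraries and 58.1 ± 1.56% in those of KM 4A2cr (SD, n = 4). Its share was lower in KM 4A2cr in 4 of 4 pairs, by 2.38 percentage points on average. An exact sign-flip permutation test over 4 pairs cannot reach a 2-sided p of 0.05, and here it took the smallest p it can give. With expected counts of that isoform alone, the TE log2 fold change of *Igf2bp2* was 0.56 (edgeR adjusted p = 0.0147). The RPF isoforms of *Igfbp3* (81.8% and 81.3%) and *Igfbp7* (52.3% and 51.9%) differed between the lines by -0.49 and -0.38 percentage points on average, with both signs among the pairs of each.

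*Igf2bp2* and the targeted gene *Eif4a2* both lie on mouse chromosome 16, with 11 coding genes between them in the RefSeq order of GRCm38.p6. Of these 11, 5 were tested: *Tra2b*, *Etv5*, *Tbccd1*, *Dnajb11* and *Fetub*. None was called by edgeR in any comparison, with 3, 2 and 1 of 5 at an unadjusted p under 0.05 in RPFs, total RNA and TE. Over all genes tested, 2411 of 10291, 1995 of 10880 and 1410 of 9989 had such a p in edgeR. Their total RNA log2 fold changes were -0.13, -0.33, -0.10, 0.26 and -0.84, with adjusted p between 0.220 and 0.813 by edgeR, against -0.48 for *Igf2bp2*.

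Upstream sequences are shown for *Igfbp3*, *Igf1r* and *Igf2r*, which rose in pairs 1 to 3 and fell in pair 4. That of *Igf2bp2*, which lacked this pattern, is also shown. Each holds the 250 bases before the first base of the gene in RefSeq, 5′ to 3′ on the strand of the gene. The build, GRCm38.p6, is another than that of the libraries. Capitals mark GC boxes (GGGCGG or its complement CCGCCC) and E-boxes (CACGTG, the core bound by MYC and its relatives).
Igfbp3 (chr11:7213924-7214173, minus strand): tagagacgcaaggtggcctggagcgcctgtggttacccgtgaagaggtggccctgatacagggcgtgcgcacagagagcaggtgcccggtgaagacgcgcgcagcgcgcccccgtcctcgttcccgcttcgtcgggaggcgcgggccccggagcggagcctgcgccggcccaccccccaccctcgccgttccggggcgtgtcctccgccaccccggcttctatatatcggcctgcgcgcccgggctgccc
Igf1r (chr7:67952007-67952256, plus strand): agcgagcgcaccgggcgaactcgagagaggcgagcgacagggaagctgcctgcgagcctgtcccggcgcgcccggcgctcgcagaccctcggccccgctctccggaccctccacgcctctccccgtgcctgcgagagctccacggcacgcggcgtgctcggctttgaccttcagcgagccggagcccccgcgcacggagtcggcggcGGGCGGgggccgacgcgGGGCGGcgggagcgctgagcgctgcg
Igf2r (chr17:12769707-12769956, minus strand): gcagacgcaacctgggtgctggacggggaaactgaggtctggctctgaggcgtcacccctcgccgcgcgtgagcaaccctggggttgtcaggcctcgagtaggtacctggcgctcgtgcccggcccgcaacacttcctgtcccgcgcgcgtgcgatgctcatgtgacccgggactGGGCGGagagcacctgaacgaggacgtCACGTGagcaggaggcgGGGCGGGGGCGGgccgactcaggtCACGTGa
Igf2bp2 (chr16:22163300-22163549, minus strand): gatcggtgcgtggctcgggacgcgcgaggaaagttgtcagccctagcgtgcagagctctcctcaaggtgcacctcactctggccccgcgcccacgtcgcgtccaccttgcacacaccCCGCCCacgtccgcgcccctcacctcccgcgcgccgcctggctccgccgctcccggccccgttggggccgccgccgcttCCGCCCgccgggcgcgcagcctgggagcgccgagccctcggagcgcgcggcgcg

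A RefSeq entry was found for 9 of 10 members and none for *Insr*. The 4 windows had GC contents of 73.2% (*Igfbp3*), 77.6% (*Igf1r*), 69.2% (*Igf2r*) and 77.2% (*Igf2bp2*), against a median of 52.4% over 32851 promoter windows of the same length, and held 32, 42, 27 and 40 CpG dinucleotides against a median of 6. GC boxes were found in 3 of the 4, with 2 in *Igf1r*, 3 in *Igf2r* and 2 in *Igf2bp2*, and in 32.7% of all windows. *Igf2r* alone among the 4 held E-boxes, 2 of them, and 6.02% of all windows held at least 1. None of the 4 held the exact TATA box string (TATAAA) or a FOXO site (TGTTTAC), searched on both strands. Of all windows, 12.4% and 3.17% hold them. Other forms of the TATA box were not searched for. The *Igfbp3* window has a run of alternating thymines and adenines near its end, and whether this acts as a TATA box was not tested. The windows of members not shown were also GC-rich in part: that of *Igfbp7* had 74.0% GC, 26 CpG dinucleotides and 4 GC boxes, and that of the scarcely detected *Igfbp4* had 69.2% GC and 22 CpG dinucleotides.

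Genes that act on the binding proteins and receptors were read from 8 lists with 91 genes in all. In RPFs 61 were tested, with 6 higher and 2 lower (13.1%, against 10.3% of all genes), and in total RNA 60 were tested, with 3 higher and 1 lower (6.7%, against 6.13%). The shares were close to those of all genes. Without replicate 4 they were 44.3% and 47.5%, where 33.4% and 29.8% of all genes were called. Counts of list genes at an unadjusted p under 0.05 in edgeR, given here or below, stand beside those of all genes tested. The latter were 2411 of 10291 in RPFs and 1995 of 10880 in total RNA. In RPFs the lists of receptor maturation and of IGFBP proteases each had 4 of 6. Receptor attenuation had 4 of 13, the mannose 6-phosphate route 3 of 13 and the IGF2BP list 2 of 10. In total RNA receptor maturation had 3 of 6, the proteases 2 of 5 and receptor attenuation 5 of 13. The epithelial markers *Abca3*, *Epcam* and *Cdh1* moved in the same direction as the genes named as higher below, with RPF log2 fold changes of 0.54, 0.51 and 0.44 (edgeR adjusted p = 0.0500, 0.0770 and 0.0845), each higher in 4 of 4 pairs. *Abca3* was also called in total RNA (0.62, edgeR adjusted p = 0.0240). Not all epithelial markers rose: 4 of the 6 tested in RPFs lay above 0. Mean RPF CPM was 1761 in KM NTC and 1647 in KM 4A2cr for *Krt18*, and 656 and 631 for *Krt8*. The part of the epithelial markers in the list changes was not tested.

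A list of receptor maturation and ligand breakdown holds proprotein convertases, the carboxypeptidase *Cpd*, the chaperone *Hsp90b1* and the endocytic receptor *Lrp1*. Of its 6 tested genes, edgeR called 2 higher in RPFs and 1 in total RNA, and DESeq2 called 3 and 2. *Furin*, a proprotein convertase that cleaves the IGF1R and insulin receptor precursors, rose in RPFs with a log2 fold change of 1.35 (SE 0.22, edgeR adjusted p = 0.0158) and in total RNA with one of 1.03 (adjusted p = 0.0111), and was higher in 4 of 4 pairs of each. *Cpd*, a Golgi carboxypeptidase, rose by 0.44 in RPFs (adjusted p = 0.0960). The median log2 fold change of the list was 0.45 in RPFs and 0.47 in total RNA, with 6 of 6 tested genes above 0, against medians of -0.01 and 0.01 over all genes.

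Of the IGFBP proteases and their inhibitors, 6 were tested in RPFs, with 1 higher and 1 lower by edgeR and 3 called by DESeq2. *Htra1*, a secreted serine protease that cleaves IGFBPs, rose in RPFs by 0.61 (edgeR adjusted p = 0.0633) and in total RNA by 0.80 (adjusted p = 0.0342), in 4 of 4 pairs. *Stc2*, which encodes an inhibitor of the IGFBP protease PAPP-A, fell in RPFs with a log2 fold change of -1.67 (SE 0.50, adjusted p = 0.0941), on 69 counts summed over KM NTC libraries and 19 over those of KM 4A2cr. *Pappa*, the gene of that protease, had 0 counts in RPFs and in total RNA of both lines. Of 3 tested genes for proteins that hold an IGFBP domain outside the family, none was called in RPFs or total RNA by edgeR, with 1 in each at an unadjusted p under 0.05, and DESeq2 called 1 in RPFs and 0 in total RNA.

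*M6pr*, the cation-dependent mannose 6-phosphate receptor, which works beside IGF2R in lysosomal enzyme transport, rose in RPFs by 0.62 (SE 0.13, edgeR adjusted p = 0.0331) and was higher in 4 of 4 pairs, and *Sort1*, a sorting receptor of the same route, rose by 0.57 (adjusted p = 0.0806). They were 2 of 13 tested genes of the mannose 6-phosphate route, of which 5 lay above 0 in RPFs, where DESeq2 called 1. In total RNA edgeR called none of the 13, with 1 at an unadjusted p under 0.05 and 1 called by DESeq2. *Igf2r* itself, at 0.16, did not pass.

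Downstream of the receptors, none of 10 tested adaptor genes was called by edgeR in either kind of library. At an unadjusted p under 0.05 there were 2 in RPFs and 1 in total RNA, and DESeq2 called 0 and 1. Of 13 tested genes that attenuate the receptors, *Ptprf*, a receptor tyrosine phosphatase, rose in RPFs by 0.44 (edgeR adjusted p = 0.0693). In total RNA *Grb14*, an adaptor that inhibits the insulin receptor, had a log2 fold change of -0.89 (adjusted p = 0.0513) and *Socs3*, a suppressor of cytokine and insulin signalling, one of 0.69 (adjusted p = 0.0959, higher in 3 of 4 pairs). DESeq2 called 1 of the 13 in RPFs and 0 in total RNA, so neither total RNA call was shared by both tools.

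In the family of *Igf2bp2*, the paralogue *Igf2bp1* was lower in RPFs, with a log2 fold change of -0.60 (SE 0.15, edgeR adjusted p = 0.0649) in 4 of 4 pairs, and had -0.32 in total RNA (adjusted p = 0.335). It was the one gene called in RPFs among 10 tested genes of IGF2BP proteins and their RNA or m6A partners, and in total RNA edgeR and DESeq2 called 0, with 0 at an unadjusted p under 0.05. In TE the list had 1 call, *Wtap*, a subunit of the m6A methyltransferase, named after its values were seen, with a log2 fold change of 0.48 (adjusted p = 0.0335).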

How the data were processed

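RPFs and cytoplasmic total RNA were read from the tables of 16 libraries. For RPFs the authors deposited whole counts per transcript, made with Cutadapt 1.18, UMI-tools 1.0.1, BBmap and SAMtools 1.9 on the most abundant GENCODE vM27 protein-coding transcript of each gene, over the coding sequence without its ends. Total RNA tables, as the authors deposited them, hold expected counts and TPM per isoform from Bowtie2 2.3.5.1 and RSEM 1.3.3. Versions are those of the submitters' processing notes. Symbols were matched for 20586 genes. Transcripts missing from an RPF library were taken as 0, and expected counts were summed per gene and rounded (in each library 27 to 58 isoforms had a value that was not whole).

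Each kind of library was tested on its own with edgeR 4.0.16 (R 4.3.3): filterByExpr, TMM, glmQLFit and glmQLFTest, fitting the line and a block for the replicate, and Benjamini-Hochberg adjustment over all tested genes at a threshold of 0.1. For TE, 1 model of 16 libraries with lysate terms gave the interaction of line with library kind. CPM were scaled by TMM, with a prior count of 2 on the log2 scale. Because each kind was scaled on its own, a change of all footprints or all mRNA would not be seen. The replicate numbers mark independent experiments, and deviations of same-numbered libraries from their line means correlated at 0.763, 0.782, 0.575 and 0.687 in RPFs and at 0.756, 0.736, 0.611 and 0.708 in total RNA, so the number was kept as a block. The study's use of batch correction was the reason for planning it.

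Depth ranged from 4512403 to 9621848 counts. The floors given for counts of 0 cover counting error only, whereas standard errors and SDs also reflect the spread between libraries. Alternatives were no block, DESeq2 1.42.0, other scalings, filters and thresholds, each replicate left out and the RPF isoform alone. Counts of TE for that isoform and of the lists without replicate 4 were added after seeing the data. The fits were first tested on simulated data.

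The members and the 8 pathway lists were chosen with earlier results of these data known, so no list is independent evidence of its own direction. Text names every member, *Eif4a2*, up to 4 called genes of each list, the tested neighbours of *Eif4a2*, and for each tested member the 2 genes of most similar level. Of the listed symbols *Ide*, *Gnptg* and *Tyrobp* were not matched. Part of the genotype shared by all libraries is not reported here.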

Additional observations from a re-analysis of the deposited data

Results flagged for a closer look

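*Igf2r* RPFs in KM 4A2cr had 1 library apart from the other 3. Replicate 2 was at 1667 CPM and the others were between 2187 and 2238 CPM, a gap of 0.910 of the range of the group. Chance flags about 1 in 20 groups of 4, and 24 groups of members and libraries were examined. Replicate 2 also had the lowest *Igf2r* value in KM NTC (1359 CPM).

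The effect of the cell line on *Igf2bp2* differed between RPFs and total RNA, by a log2 difference of 0.51 (adjusted p = 0.0256 by edgeR's interaction test, higher in 4 of 4 pairs). Over the alternatives the difference ranged from 0.43 to 0.60, with adjusted p between 0.00117 and 1.0. The cause of the difference was not tested.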

How the results depend on the processing

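Over the alternatives, 212 fold changes of members kept their direction and their side of the threshold, 9 lost the call, 7 gained it and 6 turned. Those that turned were, without replicate 4, RPFs of *Igfbp7* (0.068) and *Igf1r* (0.14) and total RNA of *Igfbp7* (0.0039), and RPFs of *Igf2bp2*, which were -0.020 with upper-quartile scaling, -0.11 with library size alone and -0.012 without replicate 3. Without each replicate in turn, RPFs ranged from -0.34 to 0.068 for *Igfbp7*, from -0.18 to 0.14 for *Igf1r* and from -0.012 to 0.11 for *Igf2bp2*, and total RNA of *Igfbp7* from -0.50 to 0.0039. With library size as the one scaling, the median over all genes was -0.14 in RPFs and -0.15 in total RNA, and its RPF calls were 482 higher and 1137 lower against 679 and 383 with TMM, and upper-quartile scaling gave 534 and 464.

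Calls over all genes were 1062 for RPFs, 667 for total RNA and 291 for TE. At an adjusted p of 0.05 they were 438, 321 and 76, and with library size alone 1619, 1130 and 132. With no filter on low counts total RNA had 1268 and TE 475, and with DESeq2 TE had 139. Leaving out 1 replicate gave between 32 and 3469 RPF calls, between 63 and 3260 total RNA calls and between 10 and 673 TE calls, each time lowest without replicate 1 or 3 and highest without replicate 4. Calls among the members then ranged from 0 to 3 in RPFs, from 0 to 5 in total RNA and from 0 to 1 in TE, and there were 0 in total RNA at an adjusted p of 0.05.

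Without the replicate block edgeR called 0 genes in RPFs, 0 in total RNA and 0 in TE, with 365, 362 and 22 at an unadjusted p under 0.05, and 0 members in total RNA and TE. DESeq2, fitted with the block, called *Igf2bp2* in total RNA and TE. The isoform share differences ranged, without each replicate in turn, from -0.89 to 0.39 percentage points for *Igfbp3* and from -0.97 to 0.21 for *Igfbp7*. The causes of these changes were not tested. Depth limits *Igfbp2*, *Igfbp4*, *Igfbp5* and *Igfbp6*, which did not pass the filter on low counts. With no filter none was called, with adjusted p from 0.462 to 0.976 and standard errors from 0.49 to 2.83.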

Other observations

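Across the 16 libraries, the genes whose log2 CPM, centred within each kind of library, ran closest to that of a member are given as a description over 9989 genes. The RPF and total RNA libraries share lysates, and libraries of a replicate number vary together, so these values say nothing of shared function or control. For *Igfbp3* they were *Cyb561d2* (Pearson r = 0.977) and *Cd276* (0.975), for *Igfbp7* *Il1rap* (0.928) and *Emb* (0.925), and for *Igf1r* *Ppp1r15b* (0.908) and *Slx4* (0.906). For *Insr* they were *Gpr39* (0.966) and *Zdhhc13* (0.962). *Igf2r* ran closest to *Tmed7* (0.966), which encodes a cargo receptor of the early secretory pathway, and to *Ctsl* (0.964), which encodes a lysosomal protease that mannose 6-phosphate receptors carry. *Igf2bp2* had lower values, 0.879 with *Zc3h15* and 0.858 with *Dlg1*.

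Among the members themselves, *Insr* ran closest to *Igf2r* (r = 0.788) and *Igf1r* (0.735). *Igf2bp2* had negative values with *Igfbp3* (-0.56), *Insr* (-0.47), *Igf1r* (-0.42) and *Igf2r* (-0.30), and one of 0.083 with *Igfbp7*. The value of *Igfbp3* was 0.302 with *Igf2r*, 0.555 with *Insr* and 0.606 with *Igf1r*. *Igfbp7* had 0.659 with *Igf2r*, 0.603 with *Igf1r*, 0.537 with *Insr* and 0.234 with *Igfbp3*.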
